A study of Mus musculus with 2 samples.

Results

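The genes of the nuclear pore and of transport through it held 50 entries in a list of genomic regions bound by the transcription factor E2F1 in mouse hepatocytes. Members were chosen by symbol among the 6887 pairs of a peak and a gene. A symbol qualified if it began with Nup plus a digit, Ipo plus a digit, Xpo, Kpna, Kpnb, Tnpo or Ranbp, or was Ran, Rangap1 or Rcc1. This gave 50 different peaks at 42 genes, out of 5667 peaks and 5587 gene symbols in all. Since a gene had to have a listed peak to enter, the presence and strength of these peaks are descriptions and were not tested.

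The cells were primary cultures of hepatocytes, which make up most of the liver's mass, from C57Bl6J mice. All of them had received an adenovirus named Ad-E2F1 and were taken 36 h later, the ChIP and the input alike, and cells without the vector were not analysed here. In chromatin immunoprecipitation followed by sequencing (ChIP-seq), an antibody against E2F1 pulled down chromatin, and unselected chromatin served as input. The labels give 1 record of each kind, and the series text speaks of 2 replicates of combined ChIPs. The authors' list gives no values per replicate, so nothing below carries a replicate error, and the read depth of the libraries is unknown. A peak list cannot show whether hepatocyte marker genes were expressed, so the cell type was not checked.

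The nuclear pore complex is a channel through the nuclear envelope, built from many copies of proteins called nucleoporins. Outer and inner rings form its scaffold, nucleoporins rich in phenylalanine-glycine repeats fill the channel, and filaments extend into the cytoplasm and the nucleus. Importins and exportins, together called karyopherins, carry proteins and RNA through the channel. The small GTPase Ran gives the direction of travel: Rcc1 loads Ran with GTP in the nucleus, and Rangap1, helped by Ranbp1 and Ranbp2, triggers GTP hydrolysis in the cytoplasm. E2F1 is known for activating genes of entry into S phase.

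Promoter sequences are shown for the 4 members with the highest fold among those with a promoter peak and a RefSeq promoter window, for the one of these with the lowest fold (Nup37), and for Ipo7 and Nup210, added after the motif search had been seen. The windows come from RefSeq, assembly GRCm38.p6, whereas the peaks are on mm9, so window and peak coordinates cannot be compared. Of the 42 genes, 34 had a window. The other 8 were Nup85, Ranbp3, Kpna3, Xpo7, Nup210l, Nup35, Xpo4 and Nup43. Each stretch runs 5′ to 3′ from 200 bases before the RefSeq start to 30 bases after it, and capitals mark every match to a 7-letter E2F motif given below. The stretches lie at chr16:18248665-18248894 (minus strand) for Ranbp1, chr13:106936929-106937158 (minus strand) for Ipo11, chr2:31974250-31974479 (plus strand) for Nup214 and chr15:8109113-8109342 (plus strand) for Nup155. That of Ipo7 is chr7:110018115-110018344 (plus strand), that of Nup210 chr6:91116797-91117026 (minus strand) and the first of the 2 of Nup37 chr10:88146792-88147021 (plus strand).
Ranbp1: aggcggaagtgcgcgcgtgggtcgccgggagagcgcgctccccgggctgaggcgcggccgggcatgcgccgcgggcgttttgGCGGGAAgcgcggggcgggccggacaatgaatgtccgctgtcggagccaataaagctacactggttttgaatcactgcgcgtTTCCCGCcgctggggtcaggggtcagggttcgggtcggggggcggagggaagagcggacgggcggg
Ipo11: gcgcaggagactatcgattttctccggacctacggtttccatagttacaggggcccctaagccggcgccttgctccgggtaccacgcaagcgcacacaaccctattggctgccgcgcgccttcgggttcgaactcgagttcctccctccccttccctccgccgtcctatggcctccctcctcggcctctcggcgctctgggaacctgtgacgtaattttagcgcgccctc
Nup214: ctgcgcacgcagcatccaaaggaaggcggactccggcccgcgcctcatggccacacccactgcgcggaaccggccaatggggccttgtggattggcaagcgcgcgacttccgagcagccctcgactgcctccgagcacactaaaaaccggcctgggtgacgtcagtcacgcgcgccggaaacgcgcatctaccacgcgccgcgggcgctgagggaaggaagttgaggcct
Nup155: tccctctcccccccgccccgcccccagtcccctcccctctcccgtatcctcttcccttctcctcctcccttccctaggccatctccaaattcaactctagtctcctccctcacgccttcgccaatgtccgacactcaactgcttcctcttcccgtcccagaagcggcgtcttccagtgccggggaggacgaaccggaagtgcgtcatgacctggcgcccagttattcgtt
Ipo7: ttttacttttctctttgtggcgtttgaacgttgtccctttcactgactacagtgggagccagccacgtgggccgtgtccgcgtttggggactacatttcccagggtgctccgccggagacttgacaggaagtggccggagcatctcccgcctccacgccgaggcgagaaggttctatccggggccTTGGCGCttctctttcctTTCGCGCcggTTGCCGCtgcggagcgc
Nup210: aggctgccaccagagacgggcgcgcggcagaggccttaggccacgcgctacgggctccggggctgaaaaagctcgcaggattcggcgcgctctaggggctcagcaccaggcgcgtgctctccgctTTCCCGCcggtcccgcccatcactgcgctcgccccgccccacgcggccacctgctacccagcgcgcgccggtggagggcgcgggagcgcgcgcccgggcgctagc
Nup37: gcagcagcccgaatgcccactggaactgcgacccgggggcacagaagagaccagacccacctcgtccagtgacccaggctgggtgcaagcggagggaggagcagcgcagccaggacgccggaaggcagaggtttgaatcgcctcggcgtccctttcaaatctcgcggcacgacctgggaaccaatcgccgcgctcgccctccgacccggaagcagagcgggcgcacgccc

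The E2F motif was searched on both strands as TTTGGCGC, TTTGCCGC, TTTCGCGC or TTTCCCGC in the whole window, from 250 bases before to 50 after the start, with overlapping matches that begin at the same base counted once. It was found in 3 of 24 windows (12.5%) of 22 members with a promoter peak, against 238 of 2910 windows (8.18%) of all genes with a listed promoter peak. Over all 32851 RefSeq promoter windows the share was 2.26%. The 3 members were Ranbp1, Nup210 and Ipo7. Counted from the RefSeq start as 1, their 7 letters after the first T began at -36, -75 and 4. In the printed stretches these are the capitals preceded by a lower-case t. Without the first T, the shorter motif matched 6 windows (25%), against 26.6% for all genes with a listed promoter peak and 9.57% of all windows. Nup188, Nup133 and Nup107 then joined. Ipo7 carried 3 short matches between -15 and 14, and Ranbp1 and Nup107 carried 2 each. Members with a peak elsewhere only had 0 of 16 windows with the longer motif and 2 with the shorter one, at Rcc1 and Tnpo1. The windows of Ipo11, Nup214 and Nup155 held no match, although their peaks were among the strongest of the group. Matching letters describe the reference sequence, and a window without them says nothing about E2F1 there.

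**Figure D1:**
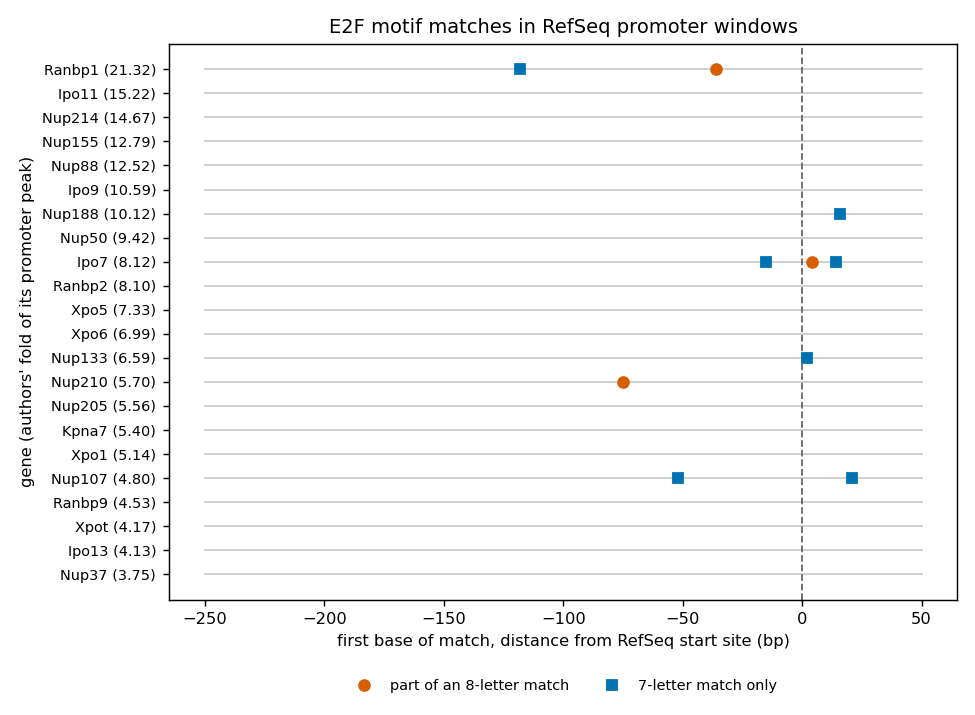
Positions of E2F motif matches (horizontal axis, bp from the RefSeq start) in the promoter windows of the 22 members with a promoter peak and a window, ordered by the authors' fold of that peak (in parentheses). Circles mark matches that belong to the 8-letter motif, at Ranbp1, Ipo7 and Nup210, and squares mark matches to the 7-letter motif only.

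The windows of members with a promoter peak also held many CpG pairs, with a median of 30.5 per window of 300 bases. The median was 22 for all genes with a listed promoter peak and 7 for all windows. Without Kpna7, whose window held 4, the windows of these members ranged from 19 to 50.

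For each peak the authors give the fold, that is, ChIP tags over the background that the peak caller expects from the input, and the number of tags in the called region. They also give a false discovery rate in percent. Peaks whose summit is at most 1000 bp away from a transcription start site (TSS) are called promoter peaks here. Distances are from the TSS to the near edge of a 301 bp window around the summit, and are 0 where the window holds the TSS. All positions of peaks are on mm9. Every listed peak has a score of at least 50, where the score is the caller's p-value on a negative log10 scale times 10. The members closest to that limit were Nup210l with 50.59 and Ranbp3l with 50.61, and regions under it were not analysed here.

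Nuclear pore and transport genes had listed promoter peaks at 26 of the 55 protein-coding genes whose symbol meets the rule (47.3%, exact 95% binomial interval 33.7% to 61.2%). Over all 21900 protein-coding genes of the RefSeq table the share was 13.1%. Any listed peak was found at 42 of the 55 (76.4%, 63.0% to 86.8%), against 24.7% of all protein-coding genes. With genes whose unique synonym meets the rule, the counts were 29 and 45 of 61. That wider set adds Cse1l, Nupl1 and Nupl2 of the transport machinery, but also Sod1, Zfp36 and Il4i1b, which have other functions. The added genes with a promoter peak were Nupl1, whose product lines the channel, Cse1l and Zfp36. The 13 genes with no listed peak were Nup54, Nup62, Nup62cl, Nup153, Kpna1, Kpna2, Kpna6, Ipo4, Ipo8, Tnpo2, Ranbp17, Ranbp10 and Rangap1. How the authors selected the list is not stated in the sources used, and a gene without an entry is not shown to be unbound.

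**Figure D2:**
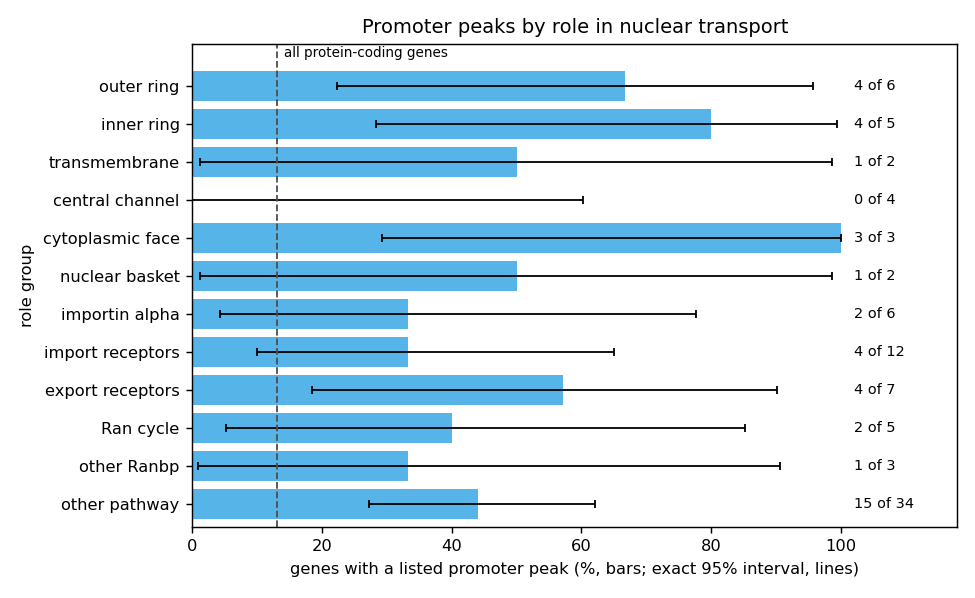
Share of genes with a listed promoter peak (horizontal axis, percent) in each role group of the 55 genes and in a further list of 34 pathway genes, with exact 95% binomial intervals and the share over all protein-coding genes (13.1%) as a dashed line. The cytoplasmic face has 3 of 3 and the inner ring 4 of 5, while the central channel has 0 of 4, and the intervals are wide in every group of so few genes. Role groups hold only genes whose symbol meets the rule. Nupl1, a channel gene with a promoter peak, is therefore not counted in its group, nor are Gle1, Aaas, Rae1 and Nupl2 of the cytoplasmic face. The same holds for Seh1l, Sec13 and Ahctf1 (outer ring), Pom121 and Ndc1 (transmembrane) and Tpr (nuclear basket). It also holds for Cse1l (export receptors) and for Nutf2 and Rangrf (Ran cycle).

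The 50 peaks had a median fold of 4.97 (quartiles 3.74 and 9.75), beside 4.93 over all listed peaks. A fold of at least 10 was found at 12 of the 50 (24.0%), against 12.8% of all listed peaks. A false discovery rate of at most 1% was found at 27 (54.0%), against 39.8%. Promoters held 26 of the 50 (52.0%, interval 37.4% to 66.3%), against 46.1% of the list. The 26 promoter peaks had a median fold of 7.71 (range 3.65 to 24.62), beside 6.48 for all listed promoter peaks, and 10 of them (38.5%) had a fold of at least 10, beside 21.9%. The 24 other peaks had a median of 3.78 (range 2.58 to 12.32), beside 4.07. The window held the member's own TSS in 13 of the 26 promoter peaks (50%). Of all listed promoter peaks, 53.6% held the TSS of any gene named there, a wider count that would also take the Kpna7 peak. The members lay on 16 chromosomes, with at most 6 peaks on any of them.

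**Figure D3:**
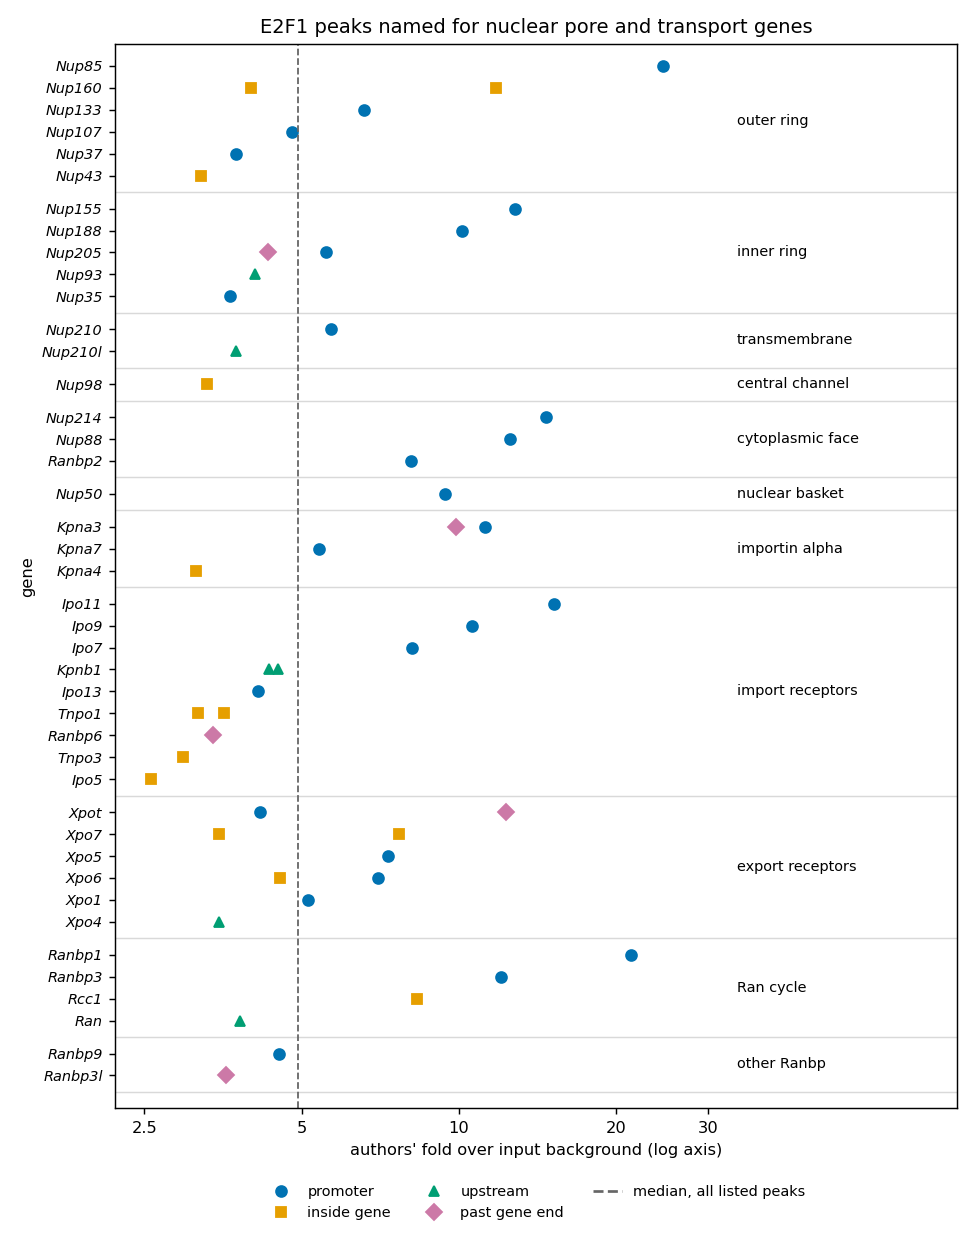
The authors' fold (horizontal log axis) of each of the 50 peaks, with 1 line per gene, grouped by role, and symbols for where the peak lies. The dashed line is the median of all listed peaks, 4.93. Nup85 and Ranbp1 lie above 20, and all 3 genes of the cytoplasmic face under the rule lie to the right of the line.

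The outer ring, also called the Y complex, is the scaffold that coats the nuclear and cytoplasmic rims of the pore. All 6 of its genes under the rule had a peak, 4 of them at the promoter. Beside the counts of this and every later role group, 24.7% of all protein-coding genes had any listed peak and 13.1% a promoter peak. Nup85, a subunit of an arm of the Y, had the strongest peak of the whole group. It lay 81 bp upstream of the TSS on chromosome 11 from 115425366 to 115425666, with a fold of 24.62, 491 tags and a false discovery rate of 0%. Its fold was higher than that of 99.0% of all listed peaks. Nup160, of the other arm, had its stronger peak inside the gene, 1897 bp from the TSS on chromosome 2 from 90519269 to 90519569. That peak had a fold of 11.79, 339 tags and a false discovery rate of 0%. A second Nup160 peak, 46529 bp into the gene, had a fold of 4.0.

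The other subunits of the Y under the rule carried weaker peaks. Nup133 and Nup107, which join each other at the end of the stem, both had windows that held the TSS, with folds of 6.59 (228 tags) and 4.8 (190 tags). Nup37, a peripheral subunit, had a TSS peak with a fold of 3.75 at a promoter shared with 4930547N16Rik. Nup43 had a fold of 3.21 at 6408 bp inside the gene, and that peak was also named for Lats1. For the genes of this ring under the rule, the folds of the promoter peaks thus ran from 3.75 to 24.62. Among Y-complex genes with other symbols, Seh1l had a promoter fold of 3.45, and Sec13 and Ahctf1 had no listed peak.

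The inner ring anchors the scaffold to the membrane and to the channel. All 5 of its genes had a peak and 4 had it at the promoter. Nup155, which contacts the pore membrane, had a fold of 12.79 with 272 tags and a false discovery rate of 0.15% on chromosome 15 from 8059234 to 8059534, over the TSS. Nup188 had a fold of 10.12 with 278 tags and a rate of 0.16% on chromosome 2 from 30142254 to 30142554. Its window began 337 bp inside the gene, and the promoter is shared with Dolk. Its large paralog Nup205 was weaker, with a fold of 5.56, 188 tags and a rate of 0.77% at 4 bp from the TSS on chromosome 6 from 35127449 to 35127749.

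Nup35, a small membrane-binding subunit, had the lowest fold of any member promoter peak, 3.65, with 178 tags and a rate of 5.75% on chromosome 2 from 80478795 to 80479095, over the TSS. Nup93, which links the inner ring to the channel, had no promoter peak. Its peak lay 19423 bp upstream on chromosome 8 from 96718773 to 96719073, with a fold of 4.08, 134 tags and a rate of 7.27%. Nup205 had a second peak 5525 bp past the gene end on chromosome 6 from 35203116 to 35203416, with a fold of 4.31, 115 tags and a rate of 7.80%.

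Of the 2 transmembrane genes under the rule, Nup210, a membrane glycoprotein of the pore, had a fold of 5.70 over its TSS with 143 tags and a rate of 0.63% on chromosome 6 from 91066729 to 91067029. Its paralog Nup210l carried its peak 2221 bp before the TSS, at a fold of 3.74, 84 tags and a rate of 8.32% on chromosome 3 from 89905532 to 89905832. Of the 4 central channel genes whose symbol meets the rule, Nup98 had a listed peak and Nup54, Nup62 and Nup62cl had none. Nupl1, whose product also lines the channel, had a promoter peak but is outside these 4. Nup98 encodes a nucleoporin with repeats and, from the same precursor, the Y-complex subunit Nup96. The peak lay 25265 bp inside the gene on chromosome 7 from 109333069 to 109333369, with a fold of 3.29, 227 tags and a rate of 7.92%.

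The cytoplasmic face, where export complexes are taken apart, had promoter peaks at all 3 genes under the rule. Among genes of this face with other symbols, Gle1 and Aaas had promoter folds of 4.54 and 4.66, and Rae1 and Nupl2 had no listed peak. Nup214, which binds exportin complexes and the mRNA export helicase, had a fold of 14.67 with 228 tags and a rate of 0.27%, 9 bp upstream of the TSS on chromosome 2 from 31829646 to 31829946. Nup88, its direct partner, had a fold of 12.52 with 222 tags and a rate of 0.13% on chromosome 11 from 70783781 to 70784081. That peak is closer to Rpain, an import factor for replication protein A, whose promoter it shares, and its edge lies 305 bp upstream of the Nup88 TSS. Ranbp2, the large filament protein that binds Ran and acts as a SUMO ligase, had a fold of 8.10 with 170 tags and a rate of 0.21% over the TSS on chromosome 10 from 57909307 to 57909607. In the nuclear basket, Nup50, a cofactor of importin-mediated import, had a fold of 9.42 with 142 tags and a rate of 0.52%, 68 bp upstream of the TSS on chromosome 15 from 84753462 to 84753762. Nup153 had none. Over the 22 nucleoporin genes whose symbol meets the rule, 13 had a promoter peak (59.1%, interval 36.4% to 79.3%), against 13.1% of all protein-coding genes. That count includes Ranbp2.

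Importin alpha proteins read the classical nuclear localisation signal of a cargo and bind importin beta. Of 6 such genes, 2 had a promoter peak. Kpna3 had a fold of 11.21 with 293 tags and a rate of 0.11%, 63 bp upstream of the TSS on chromosome 14 from 62058848 to 62059148. A second peak, 6786 bp past the end of Kpna3 and inside Ebpl on chromosome 14 from 61976936 to 61977236, had a fold of 9.86 with 199 tags and a rate of 0.10%. Kpna7 had a fold of 5.4 with 155 tags and a rate of 2.70% on chromosome 5 from 145844425 to 145844725. The Kpna7 window holds the TSS of Arpc1a, a subunit of the Arp2/3 complex, and lies 174 bp inside Kpna7. Kpna4 had a fold of 3.14 with 236 tags and a rate of 1.66% at 55476 bp inside the gene on chromosome 3 from 68875259 to 68875559.

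Import receptors of the importin beta family had promoter peaks at 4 of 12 genes. Ipo11 had the third strongest peak of the group, with a fold of 15.22, 245 tags and a rate of 0.17% over the TSS on chromosome 13 from 107726978 to 107727278. Ipo9, a receptor for histones and actin, had a fold of 10.59 over the TSS, and Ipo7, an import receptor for ribosomal proteins, 8.12 at 21 bp upstream. Ipo13 had a fold of 4.13 at 493 bp upstream. Kpnb1, importin beta itself, had a pair of peaks that both fell outside the 1000 bp limit, with folds of 4.34 at 932 bp and 4.50 at 4389 bp upstream. The authors place the nearer one in their promoter class.

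Tnpo1, Tnpo3, Ranbp6 and Ipo5 had weak peaks away from promoters, and Ipo4, Ipo8 and Tnpo2 had none listed. Tnpo1, transportin of RNA-binding proteins, had folds of 3.55 at 33822 bp and 3.17 at 19660 bp inside the gene, both also named for Gm5453. Tnpo3, which imports splicing factors, had 2.97 at 62321 bp inside the gene, also named for Irf5. Ranbp6 had 3.39 at 15355 bp past its gene end, inside 9930021J03Rik. At none of these Tnpo1, Tnpo3 and Ranbp6 peaks was the member the closest gene. Ipo5 had the lowest fold of all members, 2.58 with 269 tags and a rate of 5.12%, at 3385 bp inside the gene on chromosome 14 from 121313801 to 121314101. Of all listed peaks, 0.459% had a lower fold.

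Export receptors under the rule had promoter peaks at 4 of 7 genes, with folds from 4.17 to 7.33, so none of them reached 10. Xpo5, which exports precursors of microRNAs, had a fold of 7.33 with 298 tags at a promoter shared with Polh, a translesion DNA polymerase. Xpo6, the exporter of actin, had 6.99 with 93 tags over its TSS and 4.54 at 63782 bp inside the gene. Xpo1, the general receptor for leucine-rich export signals, had 5.14 with 175 tags at 416 bp upstream. Xpot, which exports tRNA, had a weak peak over its TSS, with a fold of 4.17 and a rate of 7.49%.

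A stronger peak named for Xpot lay 1899 bp past its end on chromosome 10 from 121022236 to 121022536, with a fold of 12.32, 375 tags and a rate of 0.20%. The authors give Tbk1 as the closer gene there, with the peak inside it. Xpo7 had folds of 7.68 at 107242 bp and 3.48 at 72913 bp inside the gene, and the stronger of the pair was closer to Npm2. The only peak of Xpo4 lay 15612 bp upstream and had a fold of 3.47.

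In the Ran cycle, 4 of the 5 genes under the rule had a peak and 2 had it at the promoter. Ranbp1, which promotes GTP hydrolysis by Ran, had the second strongest peak of the group, with a fold of 21.32, 404 tags and a rate of 0% over the TSS on chromosome 16 from 18248773 to 18249073. This promoter is shared with Trmt2a, a tRNA methyltransferase, which the authors give as the closest gene. Ranbp3, a cofactor of Xpo1, had a fold of 12.05 with 221 tags and a rate of 0% over the TSS on chromosome 17 from 56812426 to 56812726. Of the other genes of the cycle, Rcc1 and Ran had a peak only away from the promoter. Rcc1, the exchange factor, had a fold of 8.33 with 149 tags and a rate of 0.27% at 8074 bp inside the gene on chromosome 4 from 131901146 to 131901446. Ran itself had a fold of 3.82 with 71 tags and a rate of 7.98% at 3462 bp upstream on chromosome 5 from 129522181 to 129522481. Rangap1 had no listed peak.

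The rule also took genes with Ranbp in their symbol that are not transport receptors. Ranbp9, a scaffold protein of a ubiquitin ligase complex, had a fold of 4.53 with 137 tags and a rate of 7.82% at 751 bp upstream on chromosome 13 from 43577094 to 43577394. Ranbp3l had a fold of 3.58 with 249 tags and a rate of 8.31% at 15569 bp past its end on chromosome 15 from 9011870 to 9012170, closer to 1110020G09Rik.

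**Figure D4:**
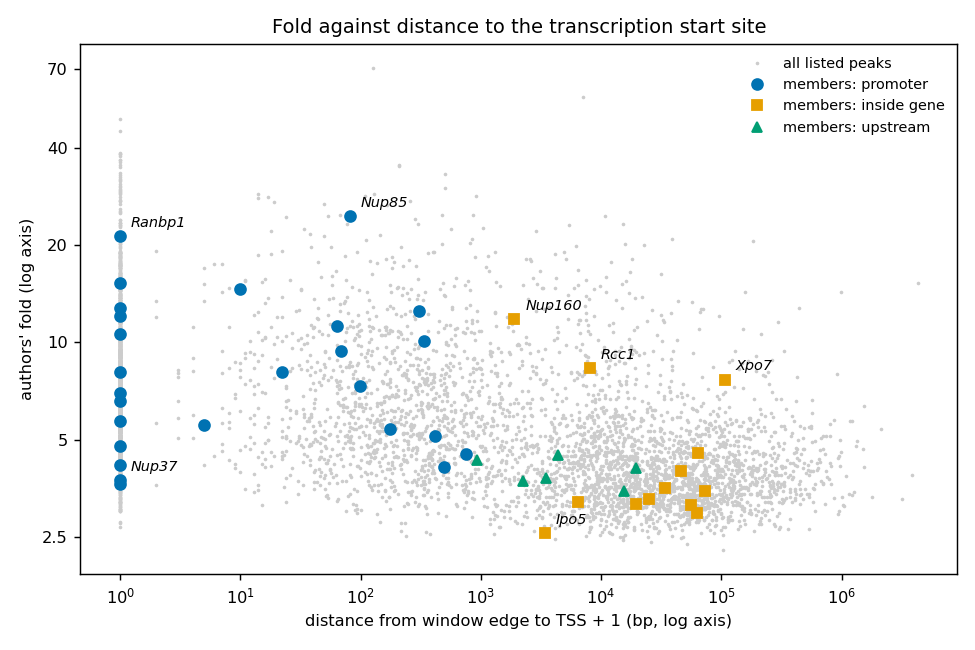
The authors' fold (vertical log axis) against the distance from the window edge to the TSS plus 1 bp (horizontal log axis) for members (coloured) and all listed peaks (grey), without peaks past gene ends. Member promoter peaks run from 3.65 to 24.62, and of the members inside genes Nup160, Rcc1 and Xpo7 lie highest.

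Several of these peaks cannot be given to 1 gene. Another gene was named at 17 of the 50 peaks, and the member was not the closest gene at 12. A pair of promoters shared the peak at 6 of the 26 promoter peaks, those of Ranbp1, Nup88, Nup188, Xpo5, Kpna7 and Nup37. With only the closest gene counted, the promoter share over the 61 genes of the wider set was 41.0%, against 11.7% of all protein-coding genes. Pairs of peaks were found at 8 genes (Nup160, Nup205, Kpna3, Kpnb1, Tnpo1, Xpo6, Xpo7 and Xpot), and the other 34 had 1 each.

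The number of tags did not order the members as the fold did, and the called regions differed in length. Ipo5, lowest in fold, held 269 tags in 3946 bp, or 68.2 tags per kb. Xpo6 held 93 tags in 1173 bp at its promoter, or 79.3 per kb, with a fold of 6.99. Nup85 held 242 tags per kb, the highest density among members, beside a median of 72.1 over all listed peaks. The 10 members of highest fold had densities of 98.7 to 242 per kb, and the 10 of lowest fold 48.7 to 77.8. The pileup height at the summit was 277 at Nup85 and 24 at Ran, the highest and lowest among members.

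A further list of 34 genes of the pore, of RNA export and of the nuclear lamina outside the rule was set beside the members. Of these, 15 had a promoter peak (44.1%, interval 27.2% to 62.1%), against 13.1% of all protein-coding genes. Any listed peak was found at 23 (67.6%), against 24.7%. Cse1l is outside the rule by symbol but is also in the wider set of 61 genes by synonym. Pom121, a membrane nucleoporin, had a fold of 19.86 with 173 tags, and Nutf2, which carries Ran back into the nucleus, 15.21 with 248 tags. Nxt1, the partner of the mRNA exporter Nxf1, had 13.54, while Nxf1 had 3.67. Alyref, listed as Thoc4, couples splicing to mRNA export and had 14.22 at a promoter shared with Anapc11.

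Among lamina genes, the B-type lamins Lmnb1 and Lmnb2 had promoter folds of 17.24 and 12.38. The A-type lamin gene Lmna had a peak with a fold of 4.23 inside the gene, at 6043 bp. Tmpo, which binds lamins, had a fold of 14.90 at 9753 bp upstream. Cse1l, which returns importin alpha to the cytoplasm, had 6.91 over its TSS. The Y-complex gene Seh1l and the membrane nucleoporin Ndc1, listed as Tmem48, had promoter folds of 3.45 and 6.43. The 11 genes without a listed peak were Ahctf1, Lbr, Rae1, Rangrf, Sec13, Senp2, Snupn, Sun1, Sun2, Thoc1 and Thoc5.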

How the data were processed

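The sources are 1 peak list made by the authors from E2F1 ChIP and input, with reads aligned by Bowtie2 (2.1.0) to mm9, per the submitters' processing notes. The caller was MACS, per the file headers, with a version and settings that no source used here states. Per the file headers, the deposited values are a count of tags in each region, the height of the pileup signal, and the fold, a ratio of ChIP to expected background. The deposited score is the p-value of the caller on a negative log10 scale, times 10, and the false discovery rate is given as a percent by the authors. One column with no explanation was left out.

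Distances on entries past a gene end were taken as distances to that end. Of 5587 symbols, 5493 matched a RefSeq gene of GRCm38.p6 by symbol or unique synonym, all 42 members among them. The members and lists were chosen with earlier results of these data known. Every member could be named. Full values were given for the 10 highest folds, for groups with fewer than 6 members and for the lowest fold. Exact (Clopper-Pearson) 95% intervals of shares cover counting error over genes, peaks or promoter windows only. The 95% interval of the median fold was read from the ranked folds of the 50 member peaks by the binomial distribution, and ran from 4.13 to 7.68. Genes and peaks are not replicates, no library totals are given, and no test was run. Gene relatives with similar sequence, such as pseudogenes of Ranbp2, can receive reads of one another. Alternatives were the promoter limit (500 or 5000 bp, or the authors' class), a false discovery rate of at most 1%, a fold of at least 5, the closest gene only, and other forms of the motif. Scripts used Python 3.11.15, pandas 2.3.3 and SciPy 1.17.1 and were tested on simulated data.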

Additional observations from a re-analysis of the deposited data

How the results depend on the processing

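Of 26 alternatives to the shares and medians above, 20 stayed within the 95% interval of the reported value and 6 did not. With only peaks of a false discovery rate of at most 1%, the share of the 61 genes with any listed peak was 47.5% instead of 73.8% (11.7% of all protein-coding genes instead of 24.7%). The median fold of member peaks was then 9.42 instead of 4.97, and the promoter share of member peaks 74.1% instead of 52.0% (70.3% of the list instead of 46.1%). With a fold of at least 5, the share with any listed peak was 42.6% (14.0% of all), and with the closest gene only 60.7% (20.8% of all). With promoter peaks only, the median fold was 7.71. These settings keep fewer peaks by construction. The promoter share of the 61 genes ran from 36.1% to 55.7% over its alternatives, beside 8.01% to 15.3% of all protein-coding genes. No paired analysis was possible because the list is not split by replicate. Depth is unknown, so how far it limits weak peaks was not tested.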
